A study of Mus musculus with 24 samples.

Results

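Cyclosporin A (CsA) was added to 3 Type V lines of mouse small cell lung cancer while p53 was switched back on, and RNA from Restored + CsA cells was compared with RNA from Restored cells of the same line. The 6 libraries compared are 1 of each kind from the lines 4711-11, 4716-10 and 4716-14, of 24 in the series, and were chosen by these labels alone. The lines were grown from lung tumors that adenoviral Cre under the CMV promoter had started in mice with the genotype Trp53 XTR/XTR, with both copies of Rb1 and of Rbl2 flanked by loxP sites (flox/flox), and with a Rosa26 FlpO-ER allele. Every line therefore lacks Rb1 and Rbl2 and carries a gene trap that holds Trp53 off until 4-hydroxytamoxifen (4-OHT) lets the FlpO recombinase remove it. Both compared groups had received 4-OHT for 72 h, so they share restored p53 and differ by CsA. The other Type V libraries are Control (vehicle) and Control + CsA at the same time, and the same 4 treatments were given to 3 Type D lines (4711-1, 4711-18 and 4716-11). Type V lines stay viable when p53 returns and Type D lines do not, so the type was itself assigned from the response. Each line gave 1 library per treatment, and the line is the replicate (n = 3). The labels do not say which lines came from one mouse.

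CsA binds cyclophilins, enzymes that turn the peptide bond before proline and so help proteins fold. The complex of CsA with cyclophilin A blocks the phosphatase calcineurin, which otherwise activates NFAT transcription factors, and this is how the drug suppresses T cells. Inside the endoplasmic reticulum (ER) cyclophilin B works beside the chaperones that fold secreted proteins, and in mitochondria cyclophilin D governs the permeability pore. Unfolded protein in the ER is sensed by ATF6, IRE1 and PERK. ATF6 and the IRE1 product XBP1 turn on chaperones and the machinery of secretion, while PERK acts through translation and ATF4, which turns on amino acid synthesis and transport. p53 halts the cell cycle mainly through Cdkn1a (p21), an inhibitor of the kinases that drive it, and genes of mitosis and DNA replication are then silenced by repressors of the Rb family, of which these lines have lost Rb1 and Rbl2.

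The promoters of 3 genes are shown because the results below describe the gene groups that these regulatory elements are known for: Cdk1 for the cell cycle, Canx for the ER and Asns for ATF4. In each list the gene of smallest unadjusted p with the searched letters in the last 150 bases before its start was taken. The sequences are from RefSeq on GRCm38.p6 and end at the base before the start of transcription, with matches in capitals. Cdk1 lies at chr10:69352913-69353062, minus strand, Canx at chr11:50325674-50325823, minus strand and Asns at chr6:7693210-7693359, minus strand. Capitals mark CCAAT (the CCAAT box, also read as ATTGG) and TTTGAA (the cell cycle homology region) in Cdk1, CCAAT followed after any 9 bases by CCACG (the ER stress element, its free bases in lower case) in Canx, and TGATGNAA (the CARE element) in Asns. All were searched on both strands.
Cdk1: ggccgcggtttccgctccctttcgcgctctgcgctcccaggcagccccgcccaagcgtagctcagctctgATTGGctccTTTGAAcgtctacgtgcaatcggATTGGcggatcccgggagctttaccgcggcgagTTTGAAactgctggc
Canx: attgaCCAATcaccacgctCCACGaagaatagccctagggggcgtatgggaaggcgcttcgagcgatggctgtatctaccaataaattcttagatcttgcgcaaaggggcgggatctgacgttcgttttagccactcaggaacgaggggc
Asns: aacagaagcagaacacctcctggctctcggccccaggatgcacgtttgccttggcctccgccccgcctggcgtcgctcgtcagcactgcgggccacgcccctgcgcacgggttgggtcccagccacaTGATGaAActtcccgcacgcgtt
In the 250 bases before the start, CCAAT was found in 25 of 33 (75.8%) of the listed cell cycle genes that the RefSeq table holds and in 10133 of 27025 (37.5%) of all genes in it. The shares for TTTGAA were 9 of 33 (27.3%) and 4934 of 27025 (18.3%). The ER stress element was found in 8 of 21 (38.1%) of the listed ER genes and 35 of 27025 (0.13%) of all genes, and TGATGNAA in 9 of 26 (34.6%) of the listed ATF4 genes and 1056 of 27025 (3.91%) of all. The CCAAT of the ER stress element is also a CCAAT box. These lists are made of known targets, so the shares describe the lists and not the response to CsA.

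Values are TPM, transcript abundances scaled for length and to one fixed total per library, which keep no record of sequencing depth, so the depth behind each value is unknown. In the 6 compared libraries 12401 to 12651 genes reached a TPM of 1. Trp53 was at 182, 208 and 215 TPM in Restored + CsA, at 189, 214 and 253 TPM in Restored and at 13.6, 14.8 and 14.1 TPM in Control, in the line order 4711-11, 4716-10 and 4716-14 that is used for all values below. The labels of restoration hold in every compared library. The defining neuroendocrine markers were largely missing from these cells: Chga was listed at 0 in all 6 libraries, and Neurod1, Calca and Dll3 stayed below 0.1 TPM, while Ncam1 lay between 7.18 and 27.3 TPM. Yap1, a transcriptional coactivator that marks a subtype poor in neuroendocrine genes, lay between 115 and 561 TPM. Of 17 markers of other cell types only 4 passed the filter on low values. Their summed level was 18.9 to 37.6 TPM in Restored and 23.6 to 37.7 TPM in Restored + CsA, most of it Cd68, a lysosomal protein of macrophages, and Cd3e, Hba-a1 and Hbb-bs were listed at 0 in all 6.

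No gene passed the test. Of 14104 genes tested, 0 (0%) reached the threshold of 1 log2 in either direction with an adjusted p under 0.05 between Restored + CsA and Restored (limma on log2(TPM + 1), with the line as a block), and 0 with any size. The smallest adjusted p was 0.0635. At an unadjusted p under 0.05 there were 633 genes (4.49%), of which 220 were higher and 413 lower with CsA. Without the block for pairing by line 0 genes passed and 100 had an unadjusted p under 0.05. Leaving out single lines let a few genes pass: Lbh and Dcn, both lower, without 4716-10, Mir1900 without 4716-14, and Lbh, Tgfbi (both lower) and Atf5 (higher) without the Type D line 4711-18, which enters only through the shared estimate of the spread. The 3 lines are the replicates, with 1 culture each. The p-values rest on the spread left after groups and lines are fitted, estimated over all 24 libraries of both types. They do not measure the spread of the 3 compared lines alone.

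The median change over all genes was -0.022 log2, and 42.6% of genes lay above 0. The 95% interval of a gene's change reached a median of 0.31 log2 to either side and lay wholly within 1 log2 of 0 for 13059 genes (92.6%). For these genes a change of 1 log2 or more lies outside the interval. For the other genes the comparison was less precise. The 3 lines shared little of their change: across genes, which are not independent replicates, the change of one line correlated with that of another with r of 0.094 (4711-11 and 4716-10), 0.23 (4711-11 and 4716-14) and 0.16 (4716-10 and 4716-14). With CsA 20.5% of genes were lower in all 3 lines and 12.7% higher.

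The 2 genes of smallest adjusted p, Lbh and Fhl3, were lower with CsA. Lbh, a transcriptional regulator of limb and heart development, was at 19.2, 23.8 and 22.5 TPM in Restored + CsA against 48.99, 36.9 and 62.99 TPM in Restored. All 3 treated libraries lay below all 3 untreated ones, with a mean difference of -1.12 ± 0.17 log2 (SE; adjusted p = 0.0635). Fhl3, a LIM domain protein of the actin cytoskeleton, was at 35.8, 28.4 and 45.00 TPM in Restored + CsA against 50.3, 42.2 and 71.03 TPM in Restored. The groups overlapped, as line 4716-14 was high in both, but each line was lower with CsA, with a mean difference of -0.56 ± 0.087 log2 (SE; adjusted p = 0.0635). Dcn, which encodes the matrix proteoglycan decorin, was at 24.5, 24.4 and 3.52 TPM in Restored + CsA against 71.9, 36.3 and 19.5 TPM in Restored, or -1.42 ± 0.28 log2 (SE; adjusted p = 0.334). Tgfbi, a secreted matrix protein named for its response to TGF-beta, was at 3.98, 91.5 and 59.6 TPM in Restored + CsA against 13.5, 138 and 169 TPM in Restored, or -1.20 ± 0.25 log2 (SE; adjusted p = 0.38). Line 4716-10 showed the smallest difference of the 3 lines for Lbh, Dcn and Tgfbi.

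The other lower genes of smallest unadjusted p did not pass the adjusted test either. Cdca8 belongs to the complex of Aurora B at centromeres, Cdca5 holds sister chromatids together, Spdl1 works at the kinetochore, Tacc3 at the spindle, Kpna2 is an importin with spindle factors among its cargo, and Cdkn2c is a CDK inhibitor. Cdca8 was at 13.5, 17.2 and 7.86 TPM in Restored + CsA against 28.3, 23.8 and 19.9 TPM in Restored, a mean difference of -0.90 ± 0.18 log2 (SE; adjusted p = 0.334). Hspa4l, a cochaperone of the HSP110 family, was at 92.2, 45.8 and 66.8 TPM in Restored + CsA against 147, 58.9 and 108 TPM in Restored, and St3gal1, a Golgi sialyltransferase, at 2.57, 28.7 and 13.2 TPM in Restored + CsA against 4.44, 42.3 and 18.7 TPM in Restored.

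The 12 higher genes of smallest unadjusted p, none of which passed the adjusted test, are described singly. Ssr4, a subunit of the translocon-associated complex, was at 310.5, 311 and 484 TPM in Restored + CsA against 196, 241 and 306 TPM in Restored, and each treated library lay above each untreated one, a mean difference of 0.56 ± 0.10 log2 (SE; adjusted p = 0.137). Serp1, which stabilizes new membrane proteins, was at 299.8, 199 and 332 TPM in Restored + CsA against 191, 150.0 and 163 TPM in Restored, a mean difference of 0.69 ± 0.16 log2 (SE; adjusted p = 0.474). Sec61b and Sec61g are subunits of the channel itself, Spcs2 belongs to the signal peptidase, Tmem258 to the oligosaccharyltransferase, Dnajb9 is a cochaperone of BiP, and Creb3l2 is a transcription factor of the secretory pathway. Sec61g was at 90.8, 97.6 and 120.2 TPM in Restored + CsA against 58.3, 80.8 and 63.7 TPM in Restored, and Creb3l2 at 28.7, 22.1 and 33.5 TPM in Restored + CsA against 15.3, 17.6 and 10.8 TPM in Restored. In line 4716-10 the difference was the smallest of the 3 lines for each of the 12 except Mir6913. Atf5, a relative of ATF4, showed the largest mean difference of a protein-coding gene in this set, at 331, 238 and 214 TPM in Restored + CsA against 116, 129 and 75.1 TPM in Restored, a mean difference of 1.29 ± 0.27 log2 (SE; adjusted p = 0.38).

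Hid1, a protein of dense core vesicles, was at 36.1, 27.8 and 51.1 TPM in Restored + CsA against 20.6, 22.8 and 21.9 TPM in Restored. It too was higher in each line with no overlap of the groups. Mir6913 was listed at 0 in all 3 Restored libraries and at 6.34, 5.02 and 1.95 TPM with CsA, and short precursor genes are poorly measured in mRNA libraries. Rpl10 has near-identical copies in the genome between which reads may be split, so its value is uncertain.

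**Figure D1:**
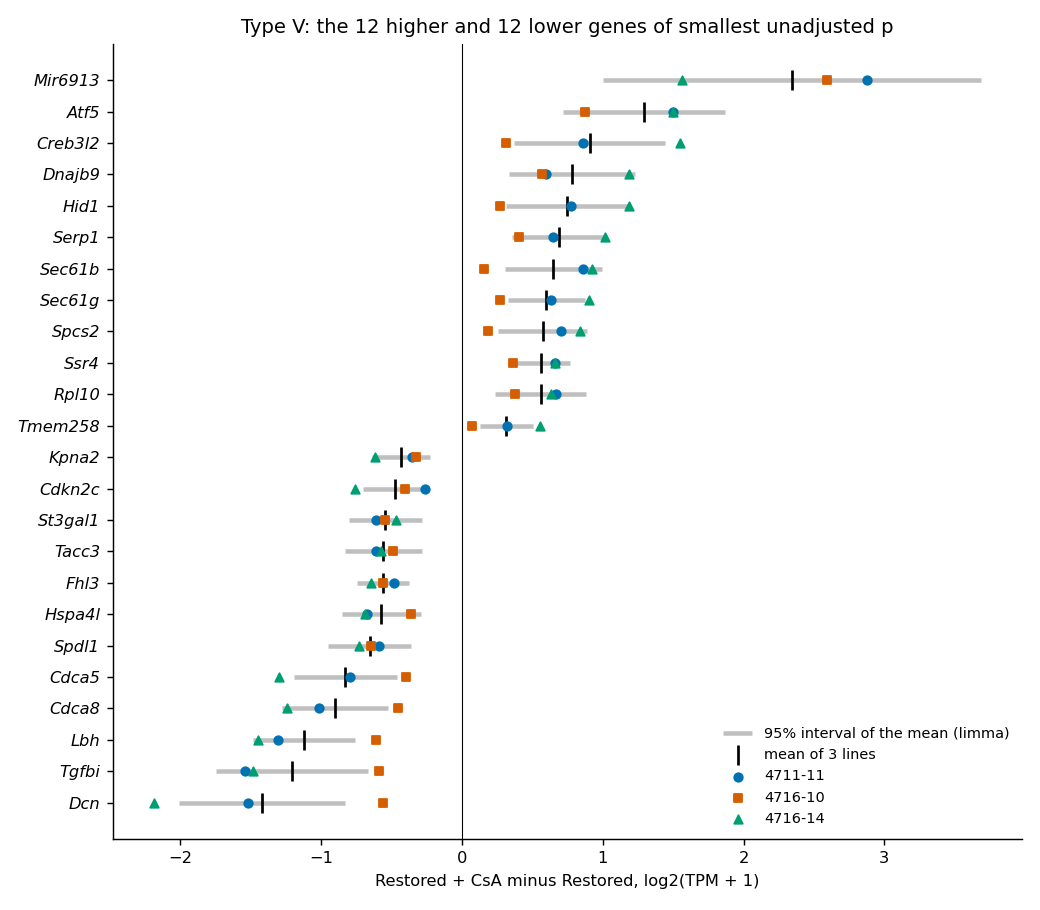
Change in log2(TPM + 1) from Restored to Restored + CsA (horizontal axis) for the 12 higher and the 12 lower genes of smallest unadjusted p. Each side was picked separately among genes with the same sign in all 3 Type V lines and a mean change of at least 0.3 log2. Colored points are the lines 4711-11, 4716-10 and 4716-14, black ticks the mean and grey bars its 95% interval from limma, and no gene passed the adjusted threshold.

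Genes of the cell cycle were lower with CsA in each of the 3 lines, although no single one passed the test. All 42 listed cell cycle genes had a mean change below 0, against 57.1% of all genes tested, with a median of -0.57 log2 against -0.022 log2. The median of the list was -0.57, -0.40 and -0.68 log2 in 4711-11, 4716-10 and 4716-14. Of the list 24 of 42 genes had an unadjusted p under 0.05 on the lower side, where 2.93% of all genes did. In 24 of the 42 genes all 3 treated libraries lay below all 3 untreated ones, which held for 1.54% of all genes. Summed over the list, the level was 3365, 2591 and 3062 TPM in Restored + CsA, 4057, 3049.5 and 4167 TPM in Restored and 7242, 7344 and 6008 TPM in Control. The Restored + CsA libraries lay below the Restored ones of the same line, and all restored libraries below all Control ones. Restoration itself lowered 24 of the 42 genes past the threshold (Restored against Control), beside 2.93% of all genes, and that comparison shares the Restored libraries with the one for CsA. In bulk RNA, fewer cycling cells and less of these transcripts per cell cannot be told apart.

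Cdk1, the kinase that drives entry into mitosis and whose promoter is printed above, was at 29.8, 34.3 and 24.1 TPM in Restored + CsA against 43.9, 53.2 and 35.5 TPM in Restored, a mean difference of -0.57 ± 0.14 log2 (SE; adjusted p = 0.515). Its level in Control was 132, 173 and 92.8 TPM, above every restored library. Ccnb1, the cyclin partner of Cdk1, was at 15.7, 20.4 and 11.8 TPM in Restored + CsA against 28.9, 31.3 and 28.9 TPM in Restored, a mean difference of -0.89 ± 0.23 log2 (SE; adjusted p = 0.582). Both genes were lower in every line and the groups did not overlap. Plk1, a mitotic kinase, was at 19.8, 14.3 and 9.91 TPM in Restored + CsA against 30.9, 24.1 and 26.2 TPM in Restored, a mean difference of -0.88 ± 0.28 log2 (SE; adjusted p = 0.81). Ccnb2 had the lowest change of the list, -0.93 ± 0.32 log2 (SE; adjusted p = 0.855), and E2f1, the transcription factor of S phase entry, the highest, -0.019 ± 0.14 log2 (SE; adjusted p = 1). Mki67, the proliferation antigen Ki-67, was at 21.7, 13.7 and 19.1 TPM in Restored + CsA against 38.97, 22.5 and 40.1 TPM in Restored, and Top2a, the topoisomerase of chromosome condensation, at 43.4, 47.5 and 46.01 TPM in Restored + CsA against 71.2, 70.1 and 91.9 TPM in Restored. For both genes too every treated library lay below every untreated one.

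The change was unequal within the list, a contrast that was picked after the values were seen and has no test. The 8 mitotic kinases and cyclins Ccnb1, Ccnb2, Cdk1, Plk1, Aurka, Aurkb, Bub1 and Bub1b lay between -0.93 and -0.57 log2. The 7 genes of replication licensing and the sliding clamp, Mcm2 to Mcm7 and Pcna, lay between -0.26 and -0.11 log2, also lower in all 3 lines. Mcm2 was at 226, 215 and 248 TPM in Restored + CsA against 249, 222 and 295 TPM in Restored, so its groups overlapped. The count depended on the lines. Without 4716-14 11 genes had an unadjusted p under 0.05 and the median was -0.51 log2, and without 4711-11 it was 15 genes and -0.56 log2. Without 4716-10 it was 22 genes and -0.65 log2. In these 3 fits, in the same order, 232, 306 and 442 of all 14104 genes were lower at an unadjusted p under 0.05.

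**Figure D2:**
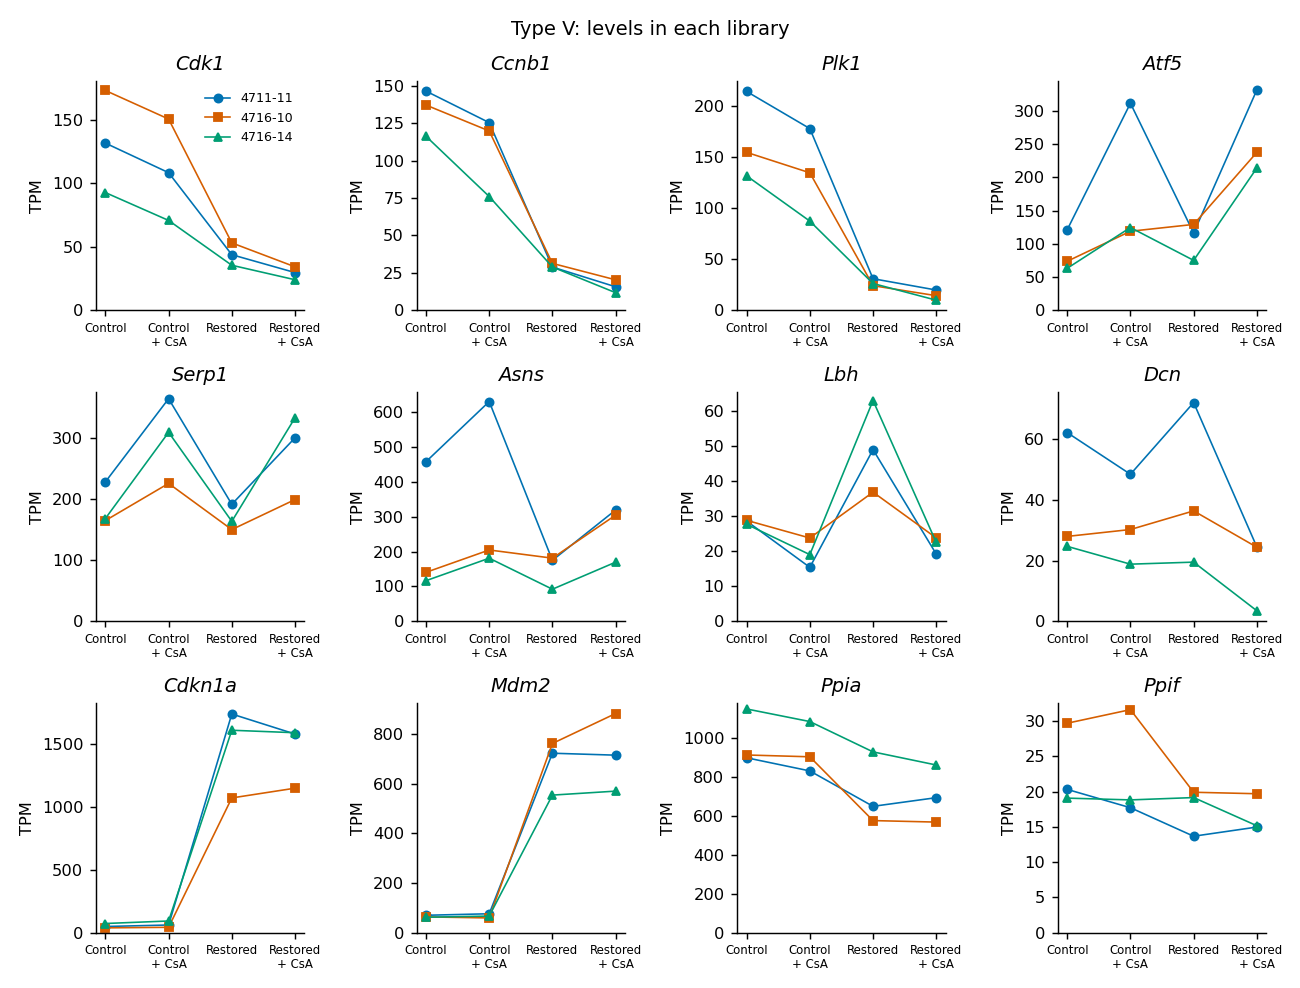
TPM (vertical axes, from 0) of 12 genes in the 12 Type V libraries, by treatment on the horizontal axis, with 1 colored line for each cell line. Cdk1, Ccnb1 and Plk1 step down with restoration and lie lower again with CsA, Atf5 and Serp1 lie higher with CsA with or without restoration, and Cdkn1a, Mdm2, Ppia and Ppif show no such step with CsA.

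Genes of the ER showed higher levels with CsA in 4711-11 and 4716-14, and hardly any difference in 4716-10. Of 26 tested chaperones and genes of the unfolded protein response 24 had a mean change above 0, against 42.6% of all genes, with a median of 0.28 log2. The list median was 0.24, 0.03 and 0.52 log2 in the 3 lines. Of these genes 11 had an unadjusted p under 0.05 on the higher side, where 1.56% of all genes did, and none passed the adjusted test. In 4 genes all 3 treated libraries lay above all 3 untreated ones, which held for 0.801% of all genes. Leaving out 4716-10 brought the median to 0.40 log2 with 17 such genes. Leaving out 4716-14 brought it to 0.12 log2 with 2, and leaving out 4711-11 to 0.27 log2 with 6. In these 3 fits, in the same order, 304, 111 and 127 of all 14104 genes were higher at an unadjusted p under 0.05.

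Dnajb9, an ER-resident J protein, led the list at 41.4, 37.3 and 67.4 TPM in Restored + CsA against 27.03, 24.8 and 28.98 TPM in Restored, a mean difference of 0.79 ± 0.21 log2 (SE; adjusted p = 0.59), with no overlap of the groups. P4hb, a protein disulfide isomerase, was at 1748, 1426 and 1768 TPM in Restored + CsA against 1261, 1327 and 995 TPM in Restored, a mean difference of 0.47 ± 0.13 log2 (SE; adjusted p = 0.688). Xbp1, the transcription factor of the IRE1 branch, was at 105, 49.7 and 214 TPM in Restored + CsA against 54.99, 56.4 and 80.7 TPM in Restored, a mean difference of 0.71 ± 0.28 log2 (SE; adjusted p = 1). The value of Xbp1 was far higher with CsA in 4716-14 and was slightly lower in 4716-10. Hspa5, which encodes BiP, the main chaperone of the ER, was at 1177, 682 and 1221 TPM in Restored + CsA against 993, 753 and 698 TPM in Restored, a mean difference of 0.30 ± 0.19 log2 (SE; adjusted p = 1), higher in 2 of 3 lines. Canx, the lectin chaperone calnexin of the promoter above, was at 668, 495 and 682 TPM in Restored + CsA against 614, 449 and 541 TPM in Restored, a mean difference of 0.20 ± 0.083 log2 (SE; adjusted p = 1). Dnajb11, another J protein, had the lowest change, -0.10 ± 0.13 log2 (SE; adjusted p = 1).

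Targets of ATF4 lay higher with CsA as a group and were uneven as single genes. All 30 listed genes had a mean change above 0, against 42.6% of all genes, with a median of 0.39 log2 and line medians of 0.47, 0.40 and 0.31 log2, and 24 were higher in all 3 lines, as were 12.7% of all genes. Of these genes 6 had an unadjusted p under 0.05 on the higher side, where 1.56% of all genes did, and none passed the adjusted test. That count was 4, 7 and 1 on leaving out 4711-11, 4716-10 or 4716-14, with medians of 0.40, 0.40 and 0.44 log2. Over all 14104 genes it was then 127, 304 and 111. Asns, asparagine synthetase, was at 319, 304 and 169.5 TPM in Restored + CsA against 175, 181 and 92.2 TPM in Restored, a mean difference of 0.83 ± 0.32 log2 (SE; adjusted p = 1), higher in each line although the groups overlapped. Trib3, a pseudokinase induced by ATF4, had the largest mean change at 25.3, 124 and 17.99 TPM in Restored + CsA against 6.77, 76.5 and 4.97 TPM in Restored. Its lines spanned a wide range of levels, and the mean change was 1.37 ± 0.84 log2 (SE; adjusted p = 1). Slc7a5, a transporter of large amino acids, was at 601, 260.0 and 123 TPM in Restored + CsA against 377, 192 and 75.9 TPM in Restored, a mean difference of 0.60 ± 0.20 log2 (SE; adjusted p = 0.827).

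The transcript of Atf4 itself was at 396, 879 and 485 TPM in Restored + CsA against 363, 733 and 396 TPM in Restored, a mean difference of 0.23 ± 0.22 log2 (SE; adjusted p = 1), and its protein, which is controlled largely in translation, was not measured. Ddit3, the stress factor CHOP, was at 89.6, 202 and 71.8 TPM in Restored + CsA against 64.3, 144 and 55.4 TPM in Restored, a mean difference of 0.44 ± 0.36 log2 (SE; adjusted p = 1). Stc2, a secreted glycoprotein, had the lowest change, 0.014 ± 0.52 log2 (SE; adjusted p = 1). Of the listed ATF4 targets, 1 (Slc7a11) is also in the list of NRF2 targets, 1 (Sesn2) in the list of p53 targets and in Module 1, and 1 (Ppp1r15a) in Module 5.

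Targets of p53 lay on both sides of 0. Of 60 listed p53 targets, 21 lay above 0 and 39 below, beside 42.6% and 57.1% of all genes. Their median was -0.034 log2, with line medians of -0.029, 0.049 and -0.11 log2. An unadjusted p under 0.05 was reached by 1 gene on the higher side and 1 on the lower, beside 1.56% and 2.93% of all genes. The 95% interval lay within 1 log2 of 0 for 53 and within 0.5 log2 for 33 of 60. Over all genes tested these shares were 92.6% and 62.5%. Cdkn1a, which encodes p21, was at 1575, 1146 and 1586 TPM in Restored + CsA against 1734, 1068 and 1605 TPM in Restored, and in Control at 48.3, 37.5 and 72.1 TPM. Its mean change with CsA was -0.019 log2 (95% interval -0.30 to 0.26). Mdm2, the ubiquitin ligase that p53 induces against itself, was at 715, 883 and 570.1 TPM in Restored + CsA against 723, 762 and 554 TPM in Restored, or 0.079 log2 (95% interval -0.20 to 0.36).

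The mean difference of Trp53 itself was -0.11 log2 (95% interval -0.36 to 0.14). Bax, a pore former of apoptosis, was at 927, 740.2 and 727 TPM in Restored + CsA against 981, 764 and 789 TPM in Restored, or -0.082 log2 (95% interval -0.27 to 0.11). Gadd45a, a stress sensor, had the highest change of the list, 0.59 ± 0.56 log2 (SE; adjusted p = 1), and Ckap2, a spindle protein, the lowest, -0.38 ± 0.15 log2 (SE; adjusted p = 0.983). Restoration gave the listed targets a median change of 1.93 log2 without CsA and 1.89 log2 with it, in fits of Restored against Control and of Restored + CsA against Control + CsA. In each fit 45 of 60 targets rose past the threshold, beside 5.74% and 5.03% of all genes.

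The cyclophilin family, which holds the proteins that CsA binds, and the pathway that CsA blocks held no transcript that passed the test. The study lists Ppia to Ppih as members known to interact with CsA, and the list used here is wider. None of the 16 tested cyclophilins had an unadjusted p under 0.05, beside only 4.49% of all genes. The 95% interval lay within 0.5 log2 of 0 for 15 and within 1 log2 for all 16, beside 62.5% and 92.6% of all genes. Ppia (cyclophilin A) was at 693, 568 and 861 TPM in Restored + CsA against 649, 575 and 928 TPM in Restored, or -0.011 log2 (95% interval -0.21 to 0.19). Ppib, the cyclophilin of the ER, was at 216, 136 and 209.7 TPM in Restored + CsA against 201, 133 and 165 TPM in Restored, or 0.16 log2 (95% interval -0.04 to 0.36). Ppie, a cyclophilin of the spliceosome, was at 70.3, 50.6 and 49.1 TPM in Restored + CsA against 57.1, 50.1 and 49.4 TPM in Restored, or 0.10 log2 (95% interval -0.051 to 0.25). Ppif, the mitochondrial cyclophilin D, was at 14.98, 19.7 and 15.2 TPM in Restored + CsA against 13.7, 19.9 and 19.2 TPM in Restored, or -0.07 log2 (95% interval -0.38 to 0.24). The changes of the list ran from -0.19 log2 in Ppih to 0.20 log2 in Ppic. Ppil6 did not pass the filter on low values.

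Of 15 tested genes of calcineurin and NFAT signaling none had an unadjusted p under 0.05, beside only 4.49% of all genes. Ppp3ca, a catalytic subunit of calcineurin, was at 133, 87.4 and 116 TPM in Restored + CsA against 96.3, 86.9 and 108 TPM in Restored, or 0.19 log2 (95% interval -0.043 to 0.43). Rcan1, a calcineurin inhibitor that NFAT induces, was at 57.1, 24.3 and 38.3 TPM in Restored + CsA against 75.8, 25.1 and 44.1 TPM in Restored, or -0.22 log2 (95% interval -0.57 to 0.14). Of the NFAT factors Nfatc3 was at 189.8, 81.8 and 120.4 TPM with CsA, and Nfatc2 stayed at or below 1.51 TPM. Of 9 tested drug transporters Abcc3, an efflux pump for organic anions, had the largest change, 0.41 ± 0.17 log2 (SE; adjusted p = 1). Abcc3 was the only 1 of them with an unadjusted p under 0.05, beside 4.49% of all genes. Abcb1b, a P-glycoprotein that carries CsA, was at 162, 93.3 and 134 TPM in Restored + CsA against 188, 87.6 and 169 TPM in Restored, or -0.15 log2 (95% interval -0.61 to 0.30), and its paralog Abcb1a was at 1.16, 6.85 and 12.7 TPM in Restored + CsA against 1.02, 7.26 and 23.9 TPM in Restored.

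The FK506-binding proteins, which are prolyl isomerases that CsA does not bind, gave a median of -0.027 log2 over 14 genes. Fkbp11, a member inside the ER, was at 8.34, 24.5 and 18.4 TPM in Restored + CsA against 5.61, 19.8 and 4.89 TPM in Restored, a mean difference of 0.84 ± 0.25 log2 (SE; adjusted p = 0.761), and Fkbp10, a collagen chaperone, at 5.85, 41.4 and 4.29 TPM in Restored + CsA against 9.87, 50.5 and 6.07 TPM in Restored, a mean difference of -0.45 ± 0.13 log2 (SE; adjusted p = 0.621). Both had the same sign in all 3 lines.

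**Figure D3:**
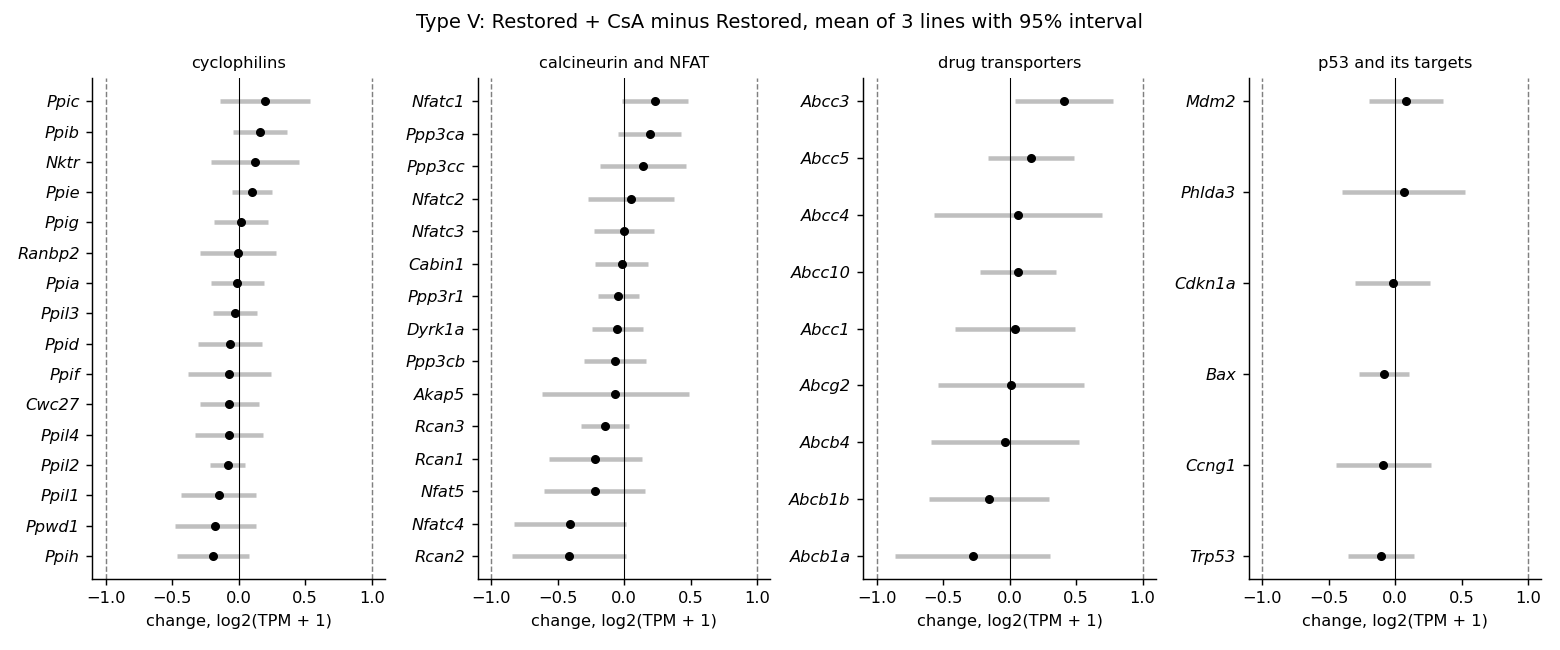
Mean change from Restored to Restored + CsA over 3 Type V lines (points, log2(TPM + 1)) with its 95% interval from limma (bars) for the tested cyclophilins, calcineurin and NFAT genes, drug transporters and 6 genes of the p53 response. Dashed lines mark 1 log2, which no interval reaches.

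Other gene groups gave smaller or mixed changes, and no member of them passed the adjusted test. Genes of cholesterol synthesis had a median of -0.20 log2 over 25 genes, with line medians of -0.14, -0.19 and -0.13 log2 and no gene at an unadjusted p under 0.05. Of these 25 genes 17 were lower in all 3 lines and 2 higher, beside 20.5% and 12.7% of all genes. Secreted factors of senescence had a median of -0.18 log2 over 40 genes, with line medians of -0.14, -0.12 and -0.20 log2. Of these 40 genes 14 were lower in all 3 lines and 3 higher. Spp1, which encodes osteopontin, was at 367, 1239 and 4689 TPM in Restored + CsA against 527, 2170.2 and 8836 TPM in Restored, a mean difference of -0.75 ± 0.27 log2 (SE; adjusted p = 0.917). Timp1, an inhibitor of matrix proteases, was at 218, 395 and 430.4 TPM in Restored + CsA against 304, 751 and 512 TPM in Restored, a mean difference of -0.55 ± 0.17 log2 (SE; adjusted p = 0.812), and the cytokine Il6, near 0 in 4711-11 and 4716-14, at 0, 5.96 and 0.076 TPM in Restored + CsA against 0.0829, 13.2 and 0.294 TPM in Restored. All 3 were lower in each line, and Gdf15, a stress cytokine that p53 induces, was higher in each line at 13.8, 87.1 and 97.6 TPM in Restored + CsA against 8.94, 58.9 and 66.7 TPM in Restored.

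Mesenchymal and matrix genes had a median of -0.19 log2 over 32 genes, with line medians of -0.24, -0.26 and 0.034 log2, so 4716-14 did not share the direction. Col5a2, a fibrillar collagen, had the lowest change of that list at 122, 4.90 and 0.116 TPM in Restored + CsA against 277, 6.49 and 0.225 TPM in Restored, a mean difference of -0.55 ± 0.24 log2 (SE; adjusted p = 1). Heat shock genes had a median of -0.08 log2 over 15 genes, targets of NRF2, the antioxidant factor, 0.087 log2 over 20 genes, interferon-stimulated genes 0.036 log2 over 20 genes, lysosomal genes 0.031 log2 over 26 genes and neuroendocrine markers -0.032 log2 over 12 genes. Hspb1, a small heat shock protein, was at 2.98, 34.6 and 15.9 TPM in Restored + CsA against 9.70, 53.4 and 15.3 TPM in Restored, a mean difference of -0.66 ± 0.24 log2 (SE; adjusted p = 0.888), lower in 2 of 3 lines.

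**Figure D4:**
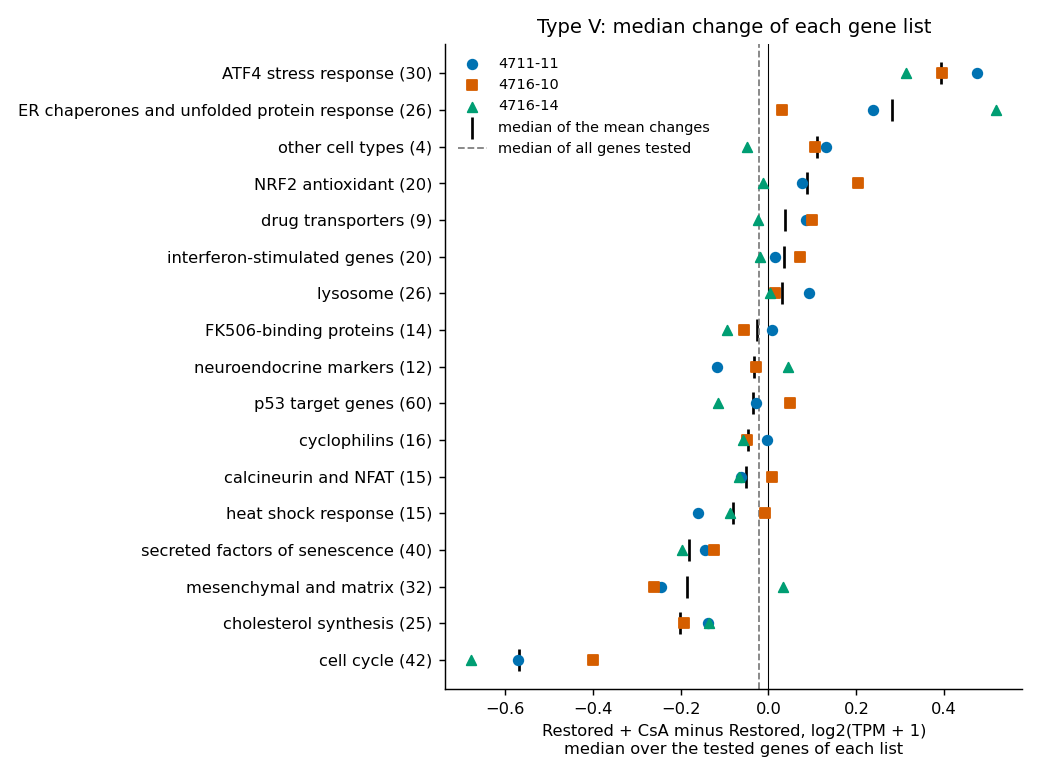
Median change from Restored to Restored + CsA over the tested genes of each list (horizontal axis, log2(TPM + 1), number of genes in brackets). Colored points are the 3 Type V lines, black ticks the median of the mean changes and the dashed line the median of all genes tested. The cell cycle list lies lowest in all 3 lines, and the ATF4 list highest in 2 of them.

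The gene sets that the study drew from these same lines are no independent evidence of a direction, and are given as a description. Module 3, whose change from Control to Restored had a median of -1.47 log2 in Type V with the same Restored libraries, was lower again with CsA in all 3 lines, with a median of -0.35 log2 over 231 genes and line medians of -0.33, -0.26 and -0.50 log2. Of its genes 200 lay below 0, beside 57.1% of all genes, and 96 had an unadjusted p under 0.05 on that side, beside 2.93%, while none passed the adjusted test. Leaving out 4711-11, 4716-10 or 4716-14 gave 47, 65 and 31 such genes, beside 306, 442 and 232 of all 14104. It holds 24 of the 42 listed cell cycle genes (57.1% of that list and 10.4% of Module 3). The other modules and the signatures of the types had medians between -0.15 and -0.029 log2. Module 1, with a median of 1.68 log2 on restoration, stood at -0.06 log2 with CsA. Cd14, a coreceptor for lipopolysaccharide in Module 4, had the lowest change of that module, -1.03 log2 (adjusted p = 0.482).

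How far the CsA change depends on restored p53 was tested by the difference between this change and the change from Control to Control + CsA in the same lines. No gene passed (0%), at an adjusted p under 0.05 with or without the limit of 1 log2, and 191 genes (1.35%) had an unadjusted p under 0.05. Without restoration CsA gave no gene past the threshold either, and 609 (4.32%) at an unadjusted p under 0.05. The cell cycle list had a median of -0.26 log2 without restoration, with 42 of 42 genes below 0, beside 54.2% of all genes, and line medians of -0.21, -0.17 and -0.36 log2. The difference to the -0.57 log2 with restoration reached an unadjusted p under 0.05 in 0 of 42 genes on the lower side, beside 0.9% of all genes.

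ER genes stood at 0.26 log2 without restoration and 0.28 log2 with it, and ATF4 targets at 0.19 and 0.39 log2. Atf5 was at 311, 119 and 125 TPM in Control + CsA against 121, 73.8 and 63.2 TPM in Control, so it was higher with CsA in each line in both states. Serp1 was at 364, 225 and 309 against 228, 165 and 168 TPM, and Creb3l2 at 40.4, 33.4 and 26.7 against 17.9, 21.5 and 14.2 TPM. Lbh was at 15.4, 23.8 and 19.1 against 28.6, 28.8 and 27.7 TPM, lower with CsA in each line without restoration too.

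The same drug under the same restoration was compared between the types by the difference of the changes. Of 14104 genes 1 passed (0.00709%), and 798 (5.66%) had an unadjusted p under 0.05. Bnip3, a mitochondrial protein of mitophagy, was at 59.3, 129.9 and 40.4 TPM in Restored + CsA against 49.4, 110.3 and 38.1 TPM in Restored of Type V, and at 25.6, 50.7 and 166 TPM in Restored + CsA against 85.8, 123 and 524 TPM in Restored of Type D. It was higher with CsA in each Type V line and lower in each Type D line. The change was 0.19 log2 in Type V and -1.54 log2 in Type D, and the difference 1.73 ± 0.23 log2 (SE; adjusted p = 0.0226). It missed the threshold under quantile normalization, under median-ratio scaling, without the block, and without the Type V line 4711-11 or the Type D line 4716-11, where 0 genes passed each time.

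Lbh, lower with CsA in Type V, was at 46.3, 45.7 and 72.5 TPM in Restored + CsA against 40.01, 32.7 and 75.8 TPM in Restored of Type D, and the difference between types was -1.32 ± 0.24 log2 (SE; adjusted p = 0.13). Lilr4b and Lilrb4a, near-identical receptors of the immunoglobulin family whose reads may be shared, were at or near 0 in Type V, and Lilr4b was at 4.41, 6.001 and 2.62 against 70.6, 20.9 and 13.4 TPM in Type D. Mgp, an inhibitor of calcification, was at 17.5, 15.4 and 12.4 TPM in Restored + CsA against 9.95, 20.2 and 13.1 TPM in Restored.

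Of the 42 cell cycle genes 14 had a lower change in Type V than in Type D at an unadjusted p under 0.05, where 2.9% of all genes did, and none passed the adjusted test. The list median in restored Type D was 0.036 log2. The line medians were -0.13, 0.37 and -0.049 log2 in 4711-1, 4711-18 and 4716-11, so the restored Type D lines did not share a direction. Without restoration the summed level of the list was lower with CsA in each Type D line. It was 6225, 5659 and 5248 TPM in Control + CsA against 6984, 7018 and 6365 TPM in Control. Ccnb1 was at 19.1, 11.3 and 20.05 TPM in Restored + CsA and 14.1, 5.52 and 19.3 TPM in Restored of Type D, higher in each line. For ER genes the median was 0.23 log2 in Type D and for ATF4 targets 0.40 log2, where the line medians of 0.57, -0.24 and 0.79 log2 fell on both sides of 0, and 1 ER gene and 1 ATF4 target differed between types at an unadjusted p under 0.05, beside 2.76% of all genes on the higher side and 2.9% on the lower. Atf5 was at 379, 252 and 288 against 172, 248 and 101 TPM in Type D, again higher in each line.

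**Figure D5:**
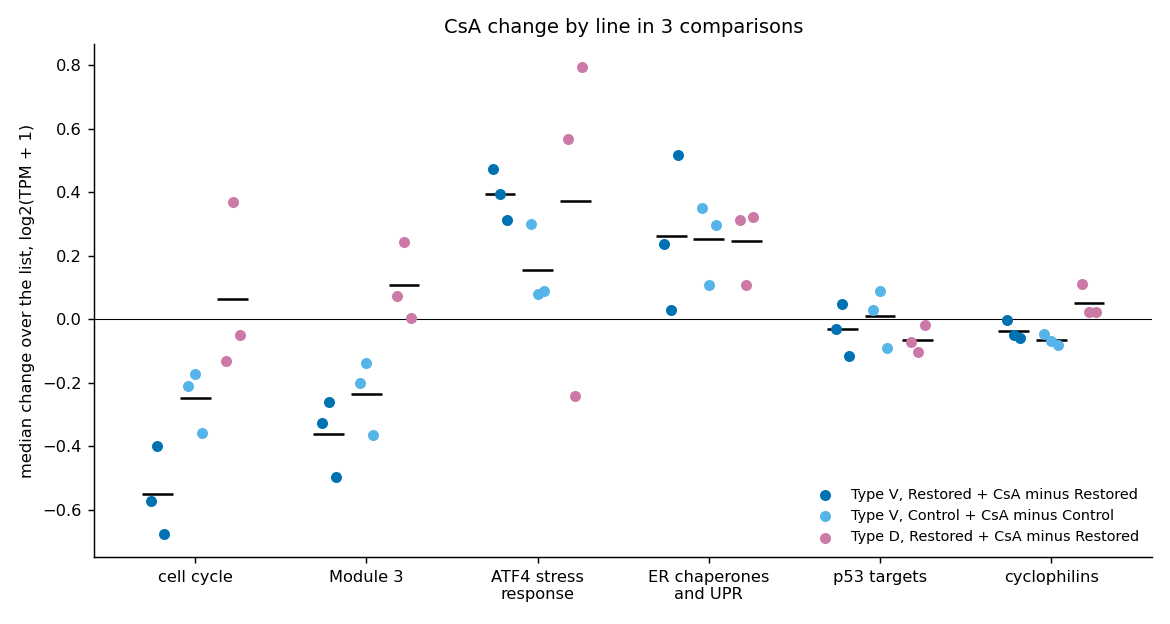
Median change with CsA over the genes of 6 lists (vertical axis, log2(TPM + 1)) in 3 comparisons, with a point for each of 3 lines and a bar for their mean. In the cell cycle list and in Module 3 the Type V points lie below 0 with and without restoration. The Type D points, drawn with restoration only, lie around or above 0. In the ER list all points of the 3 comparisons lie above 0.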

How the data were processed

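RNA from 24 cultures (6 lines, 4 treatments, 1 library each) was sequenced by the authors as single-end, stranded mRNA libraries. The deposited table holds TPM per gene, made by the authors. The submitters' processing notes name HISAT2, mm10 and GRCm39 without saying which belongs to this table. TPM sums to a fixed total, so a rise of a few abundant genes lowers all others, and it keeps no depth, so no counting interval is given. Columns were matched to samples by line and treatment. log2(TPM + 1) of the 14104 of 25239 genes with at least 1 TPM in at least 3 libraries was fitted with limma 3.58.1 (R 4.3.3, trended eBayes, two-sided moderated test, Benjamini-Hochberg) over all 24 libraries, with 8 groups and the line as a block. The pairing comes from the labels, which give the line: deviations from the group means correlated with r of 0.879 to 0.924 between Restored and Restored + CsA of the same Type V line and -0.675 to -0.308 between different lines. With 3 lines per group the deviations of a gene sum to 0. This centering alone pushes the values between different lines below 0. Calls needed an adjusted p under 0.05 and 1 log2. The fit was tested on simulated data.

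Named genes were the 12 higher and 12 lower genes of smallest unadjusted p with 1 sign in all 3 lines and at least 0.3 log2, the extremes of each list, label checks, and the small lists of drug targets. Other genes named were chosen after their values were seen. The comparison and all gene lists were chosen with earlier results of these data known. Alternatives were a pseudocount of 0.1, other filters (none, or 5 TPM), quantile and median-ratio scaling, no block, fewer libraries in the fit, and leaving out each line. Those that leave out Type D lines, other than for the difference between the types, and the fit of the main comparison on the compared groups of both types were chosen after seeing the data. Promoter sequences were read from a RefSeq table on GRCm38.p6.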

Additional observations from a re-analysis of the deposited data

Results flagged for a closer look

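Bnip3 was singled out because its CsA change differed between the types in the limma test of the difference itself, by 1.73 log2 (Type V minus Type D, adjusted p = 0.0226). The change was above 0 in 3 of 3 Type V lines and below 0 in 3 of 3 Type D lines.

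In 3 lists every line median of Type V lay on one side of 0 and every line median of Type D on the other, which was not tested. The difference of the types was -0.47 log2 for Module 3, with line medians of -0.33, -0.26 and -0.50 log2 in Type V and 0.074, 0.24 and 0.0034 log2 in Type D. It was -0.17 log2 for Module 2, with -0.11, -0.11 and -0.19 log2 in Type V and 0.019, 0.052 and 0.03 log2 in Type D, and -0.089 log2 for the cyclophilins, with -0.0024, -0.048 and -0.058 log2 in Type V and 0.11, 0.023 and 0.024 log2 in Type D. Both modules were drawn by the study from these lines. All these medians are with restored p53. Without restoration the summed level of Module 3 was lower with CsA in each Type D line too. It was 20640, 22206 and 20067 TPM in Control + CsA against 22579, 25493 and 22711 TPM in Control.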

How the results depend on the processing

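The count of genes that differed between Restored + CsA and Restored was 0 as reported, 2 with a pseudocount of 0.1 (Lbh and Tmem163, both lower) and 1 when only the 12 Type V libraries were fitted (Mir6966). Its range was 0 to 2 when each Type V line was left out and 0 to 3 when each Type D line was. The count for the difference between types was 1 as reported, 0 under quantile normalization, 0 under median-ratio scaling, and 2 with only the 12 libraries of the compared groups (Bnip3 and Ankrd37). Its range was 0 to 2 without each Type V line and 0 to 3 without each Type D line. The count for the difference with and without restoration was 0 as reported and 0 to 2 without each Type V line (Mir1900 and Mir6959 without 4716-14). With no block for the pairing by line, 0, 0 and 0 genes passed in the 3 comparisons, and 100, 102 and 23 had an unadjusted p under 0.05, against 633, 798 and 191 with it. The cause of these shifts was not tested.

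Of the values of named genes 575 kept their side of the threshold, 6 passed it only under an alternative and 3 moved by more than the spread between lines. Of the list medians 367 stayed within 1 SD of the line medians and 8 did not, each on leaving out a Type V line. Many of the 367 were fixed in advance. With no filter, no block, fewer groups in the fit or a Type D line left out, the list medians could not change. The mean change of each gene is the same paired difference in those fits, so they are no check of the medians. Over 15 alternatives the median of the cell cycle list lay between -0.65 and -0.51 log2, with 11 to 35 genes at an unadjusted p under 0.05. That of the ER list lay between 0.12 and 0.40 log2, with 2 to 17 genes. That of the ATF4 list lay between 0.39 and 0.44 log2, with 1 to 21 genes, and that of the p53 targets between -0.079 and 0.0011 log2. Over all genes tested, 61 to 1001 were lower and 39 to 596 higher at an unadjusted p under 0.05. The 35 and the 21, like the 1001 and the 596, came from the fit of the 6 compared libraries alone. With 3 lines, 1 culture each and no record of depth, changes below about 0.31 log2 lie within the 95% interval of a typical gene.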
